A study of Macaca fascicularis with 2 samples.

Results

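The 9 genes of VEGF and angiopoietin signalling (VEGFA, VEGFC, KDR, FLT1, FLT4, ANGPT1, ANGPT2, TEK and TIE1) were followed across the vascular, interstitial and tubular cells of the monkey testis. They were taken by symbol, and all 9 were found among the 28845 features of the count tables. The tables come from cynomolgus monkey (Macaca fascicularis) testis, profiled as single cells with 10x Genomics 3' version 3 chemistry. One library came from an abdominal testis in artificial unilateral cryptorchidism (UAT) and 1 from the scrotal testis of the other side (CST). No age, strain, time since the procedure or number of animals is given in the sources used here, and both samples are labelled as testis dissociated with collagenase and dispase. With 1 library per position, no difference has a replicate check and no test was possible.

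VEGF ligands act on receptor tyrosine kinases of endothelial cells. VEGFA binds KDR (VEGFR2), which carries most of its growth signal, and FLT1 (VEGFR1), which also exists as a soluble decoy. VEGFC binds FLT4 (VEGFR3) and is the main growth factor of lymphatic vessels. ANGPT1, made by cells around vessels, activates the receptor TEK (TIE2) and steadies the endothelium. ANGPT2, made and stored largely by endothelial cells, acts on the same receptor as a context-dependent antagonist or agonist, and TIE1 is an orphan relative that modulates TEK. In the testis, interstitial vessels carry hormones and oxygen past the Leydig cells to tubules that hold no vessels themselves.

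Cells were classed by marker gates that contain none of the 9 genes, and the class names stand for these gates. The UAT and CST libraries gave 1427 and 379 blood endothelial cells, 94 and 35 lymphatic endothelial cells and 456 and 88 mural cells, the pericytes and smooth muscle of vessel walls. They also gave 1385 and 389 peritubular myoid cells, 4554 and 1574 stromal cells, 169 and 16 Leydig cells and 362 and 17 Sertoli cells. No gate had a marker of another class among its 10 leading genes. This count left out the arterial, venous and capillary lists and, for the endothelial gates, the endothelial and lymphatic lists. The capillary marker FABP4 was among the 10 leading genes of the lymphatic gate. PROX1 and LYVE1 also occurred in blood endothelium, so a lymphatic call required MMRN1 together with at least 3 of 6 lymphatic markers. A blood endothelial call required that MMRN1, RELN and CCL21 were all undetected. Endothelial cells that met neither rule were left out of both classes. The lymphatic gate held 25 UAT and 8 CST cells with exactly 3 markers, and TFF3 was at 0 in both libraries. In an unsupervised clustering, 1413 of the 1427 UAT and 372 of the 379 CST blood endothelial cells, and 92 of 94 and 35 of 35 lymphatic cells, fell into clusters of the same name. The stromal cells of the libraries lay in different clusters (0 and 1 in UAT, 3 in CST), as did the myoid cells (2 in UAT, 22 in CST).

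The libraries held 111047299 UMIs in 12564 barcodes (UAT) and 197225937 UMIs in 15952 barcodes (CST), and 50 barcode sequences occurred in both. Median UMIs per cell were 7060 and 3195 in blood endothelium, 6423 and 3463 in lymphatic endothelium and 3717.5 and 1935.5 in mural cells. The 8 spermatid markers summed to 1.97 CPM (UMIs scaled to a common class total) in UAT blood endothelium, with 5 of 8 detected, and to 3757 CPM in CST blood endothelium, with all 8 detected. CST levels in the lymphatic, mural, myoid and stromal gates were 4172, 5769, 3097 and 3840 CPM. The part of this spermatid RNA in the differences below was not tested. Levels are UMIs summed over a class and given as CPM of the class total, with exact Poisson 95% intervals, and a ratio divides the UAT level by the CST level, with an exact conditional 95% interval. All intervals cover counting error only. In these sums, fewer expressing cells and less RNA per cell cannot be told apart, so shares of cells with a UMI are added where they help.

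**Figure D1:**
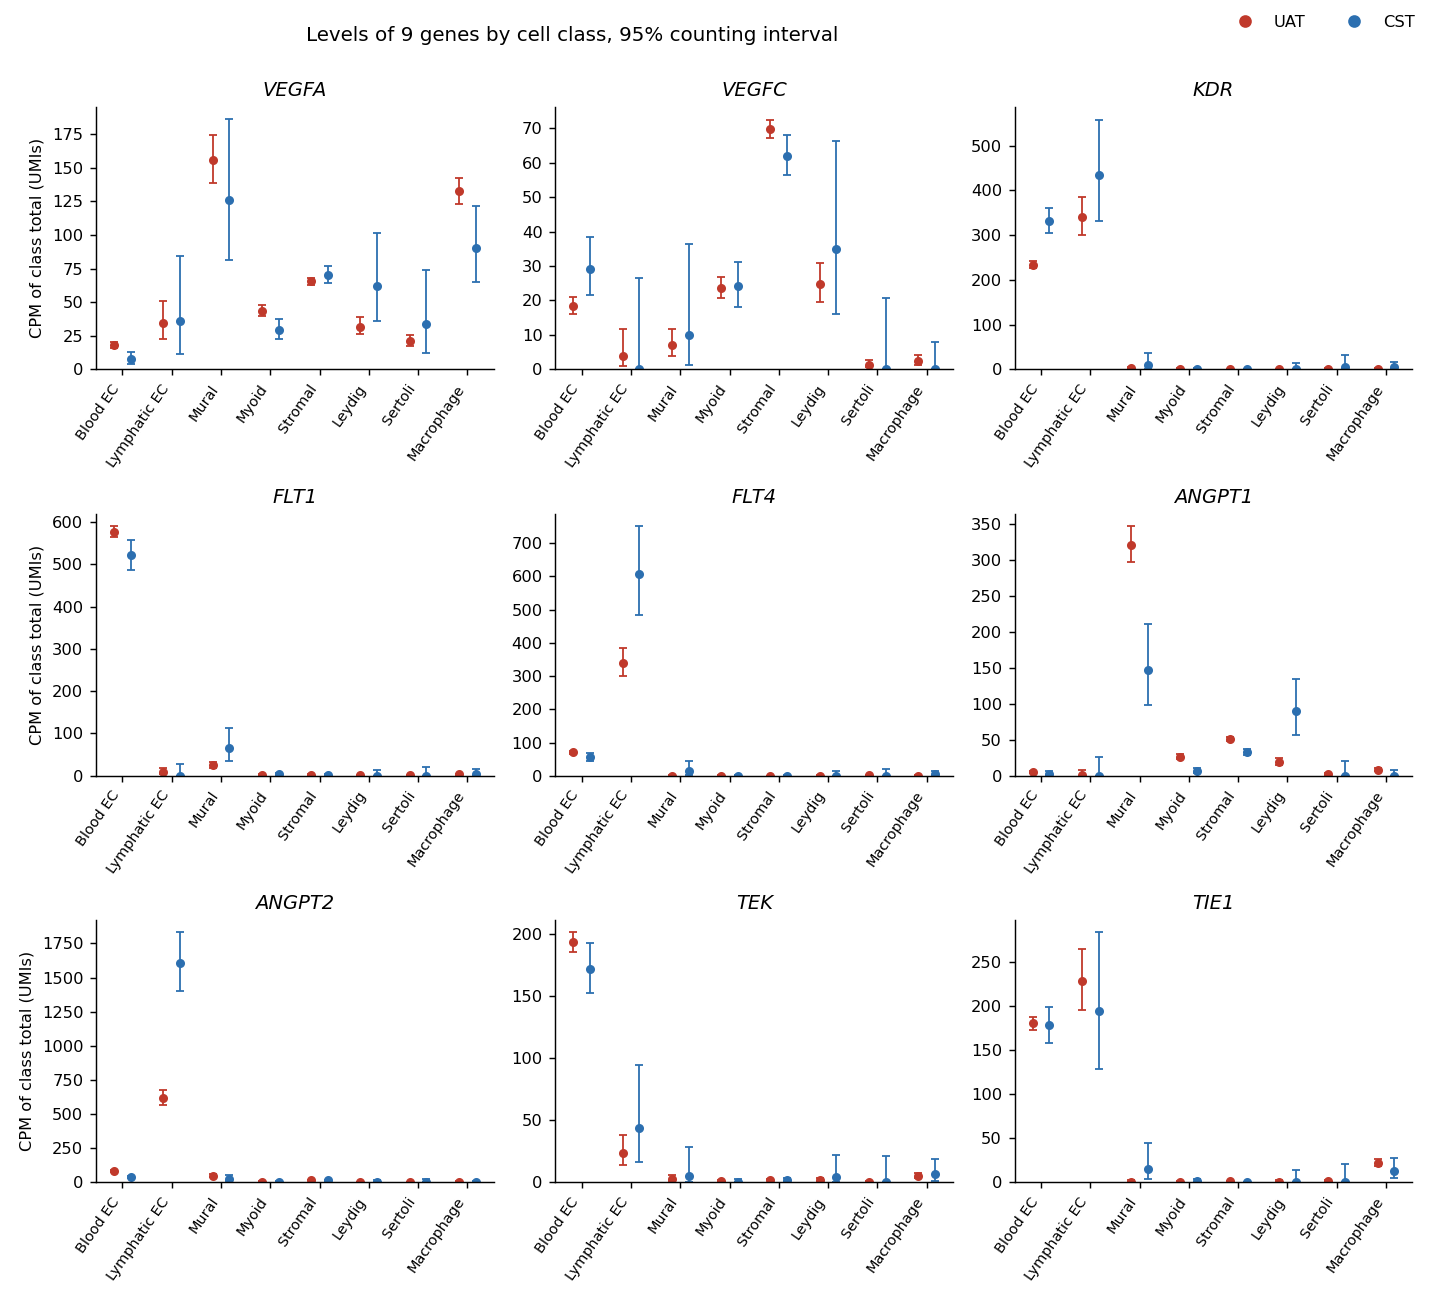
Level of each gene (vertical axis, CPM of the UMIs of a class, starting at 0) in 8 marker-gated classes (horizontal axis) of the UAT library (red) and the CST library (blue), with exact Poisson 95% counting intervals. The receptors KDR, FLT1, FLT4, TEK and TIE1 stood highest in endothelium, VEGFA and ANGPT1 in mural cells, VEGFC in stromal cells and ANGPT2 in lymphatic endothelium, where CST reached 1605 CPM and UAT 619.

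VEGFA, the ligand of KDR and FLT1, was highest in mural cells of both libraries. It stood there at 156 CPM in UAT (139 to 174), and 126 CPM in CST (81.6 to 186). Macrophages followed at 133 CPM in UAT (123 to 143), and 90.1 CPM in CST (64.9 to 122), and in each library the intervals of mural cells and macrophages overlapped. Stromal cells held 65.4 CPM in UAT against 70.4 in CST, and myoid cells 43.5 and 29.2. Lymphatic endothelium was at 34.5 and 36.2 CPM, the latter from 5 UMIs. Blood endothelium had the least VEGFA of the vascular classes, with 18.0 CPM in UAT (229 UMIs), and 7.73 CPM in CST (13 UMIs). T or NK cells, which should carry little of it, were at 19.9 CPM in UAT from 22 UMIs and at 5.80 CPM in CST from 1, so the blood endothelial value lay no higher than this background in UAT. By share of cells, 10.9% of UAT blood endothelial cells and 5.62% of UAT T or NK cells had a VEGFA UMI, at median depths of 7060 and 3124 UMIs.

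Between the testes, the VEGFA ratio was 1.24 in mural cells (0.822 to 1.94) and 0.930 in stromal cells (0.845 to 1.03), and both intervals held 1. In myoid cells it was 1.49 (1.15 to 1.95) and in macrophages 1.47 (1.08 to 2.06). The blood endothelial ratio of 2.33 (1.34 to 4.44) rested on 13 CST UMIs, near the CST level of T or NK cells, which itself came from 1 UMI. Other CST gates gave no single background, with VEGFA at 0.57 CPM in spermatids, 0.26 in spermatocytes and 16.7 in spermatogonia. Averaged over single cells instead, the blood endothelial levels were 14.8 CPM in UAT against 12.9 in CST.

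In Leydig and Sertoli cells CST had too few cells for a ratio. Leydig cells, which make testosterone, had 31.8 CPM of VEGFA in UAT (103 UMIs in 169 cells) and 62.3 in CST (16 UMIs in 16 cells). Of those 16 CST UMIs, 37.5% came from 1 cell. Sertoli cells, which nurse the germ cells, had 21.2 CPM in UAT (109 UMIs), and 33.9 CPM in CST (6 UMIs in 17 cells). All 16 CST Leydig cells and 7 of the 17 CST Sertoli cells would be removed by a score for simulated doublets, and their 8 spermatid markers summed to 1234 and 3200 CPM. These CST values are therefore given side by side with UAT and are not compared.

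VEGFC, the ligand of FLT4, was a stromal gene in both testes. Stromal cells held 69.9 CPM in UAT (67.2 to 72.6), and 62.0 CPM in CST (56.4 to 68), with a UMI in 39.1% and 22.8% of cells. The stromal ratio was 1.13 (1.02 to 1.25). Within UAT, the stromal level was 2.97 times the myoid level (2.60 to 3.40), and within CST 2.57 times (1.95 to 3.46). Myoid cells held 23.5 and 24.1 CPM, a ratio of 0.978 (0.729 to 1.33), and 1.62 after thinning to 1000 UMIs. Leydig cells held 24.7 CPM in UAT (80 UMIs), and 35.0 CPM in CST (9 UMIs). Mural cells had 6.97 and 10.1 CPM, and the lymphatic endothelium itself had 3 UMIs in UAT and 0 in CST, where 3 UMIs would be 21.7 CPM.

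In blood endothelium VEGFC stood at 18.4 CPM in UAT (16.1 to 20.9), and 29.1 CPM in CST (21.6 to 38.5), a ratio of 0.632 (0.463 to 0.878). Most of it was in arterial cells. Cells with arterial markers held 188 of the 234 UAT UMIs and 42 of the 49 CST UMIs, at 40.6 CPM in UAT (35.0 to 46.8), and 61.4 CPM in CST (44.3 to 83.0). Venous cells had 4.30 CPM in UAT and 0 UMIs in CST, and capillary cells had 0 UMIs in either library, where 3 UMIs would be 6.46 and 68.2 CPM. Within UAT the arterial level was 9.43 times the venous level (4.25 to 26.0), and within CST it was at least 2.93-fold higher, with venous set at 3 UMIs. The arterial UAT over CST ratio was 0.661 (0.471 to 0.946). One CST cell held 26.5% of the blood endothelial VEGFC UMIs, and without the highest cell of each library the ratio was 0.792. It passed to 1.02 when cells with a close second lineage were kept, and to 0.934 in Leiden clusters.

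KDR, the main signalling receptor of VEGFA, was highest in the endothelial classes. Blood endothelium held 234 CPM in UAT (226 to 243), and 332 CPM in CST (305 to 360). Lymphatic endothelium held 340 CPM (299 to 384) and 434 (331 to 558). The next classes were mural cells at 2.49 CPM in UAT against 10.1 in CST, from 5 and 2 UMIs. Of T or NK cells, 0.296% in UAT and 0 of 70 in CST (a limit of 4.29%) had a KDR UMI, at median depths of 3124 and 2008.5 UMIs, while 72.7% of UAT and 59.9% of CST blood endothelial cells had at least 1. Lymphatic cells exceeded blood endothelial cells 1.45-fold within UAT (1.27 to 1.65), and 1.31-fold within CST with an interval that held 1 (0.985 to 1.71).

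KDR was lower in UAT blood endothelium by a ratio of 0.706 (0.645 to 0.774). Thinning every cell to 1000 UMIs left a KDR UMI in 20.1% of UAT and 27.5% of CST cells, the same order as the CPM, whereas the unthinned shares run the other way with the deeper UAT cells. Among subsets, the arterial ratio was 0.649 (0.566 to 0.746), from 243 CPM in UAT against 374 in CST. In venous cells the levels were 192 and 181 CPM, a ratio of 1.06 (0.704 to 1.65) on 21 CST cells. The difference between the subsets was not tested, and their intervals overlap. In lymphatic endothelium the KDR ratio was 0.783 (0.589 to 1.06).

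FLT1, which binds VEGFA tightly and also occurs as a soluble form that a 3' count cannot separate, marked blood as opposed to lymphatic endothelium. Blood endothelium held 577 CPM in UAT (564 to 591), and 521 CPM in CST (487 to 556). Lymphatic endothelium had 7 UMIs in UAT and 0 in CST. The lymphatic level was 0.0161 times the blood level in UAT (0.00647 to 0.0332) and at least 24.0-fold lower in CST, with 3 UMIs as the floor. Of UAT blood endothelial cells 67.1% had both KDR and FLT1, against 6.38% of UAT lymphatic cells. The UAT over CST ratio in blood endothelium was 1.11 (1.03 to 1.19), and 0.991 in Leiden clusters.

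Outside endothelium, FLT1 was seen in mural cells and germ cells. Mural cells held 24.9 CPM in UAT (50 UMIs), and 65.6 CPM in CST (13 UMIs in 8 cells), a ratio of 0.380 (0.203 to 0.762). The 10 endothelial markers summed to 61.7 CPM in UAT and 187 CPM in CST mural cells, with 9 of 10 detected and ROBO4 at 0 in each, and their part in this difference was not tested. The ratio was 0.808 as a mean over single cells and 2.09 after thinning to 1000 UMIs, where 1.28% of CST mural cells kept a UMI. Spermatids of CST held 21.0 CPM of FLT1 (1325 UMIs, 20.6% of 3754 cells) and spermatocytes 12.8 CPM (1129 UMIs, 17.6% of 3802 cells). Spermatogonia held 20.1 CPM in both UAT (47 UMIs) and CST (70 UMIs). KDR in the same spermatids was at 0.538 CPM from 34 UMIs. The part of free RNA in the germ cell FLT1 counts was not tested.

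FLT4, the receptor of VEGFC, was highest in lymphatic endothelium and was not used to gate it. It stood there at 340 CPM in UAT (299 to 384), and 607 CPM in CST (484 to 752). Blood endothelium held 70.9 CPM (66.3 to 75.7) and 55.9 (45.2 to 68.4), and the following classes were at 4.29 CPM or less in UAT and at 15.1 CPM (3 UMIs, mural) or less in CST. Lymphatic over blood endothelium was 4.79 in UAT (4.16 to 5.51) and 10.9 in CST (8.0 to 14.7). The UAT over CST ratio was 0.559 in lymphatic (0.436 to 0.725) and 1.27 in blood endothelium (1.02 to 1.59). The share of lymphatic cells with FLT4 was nearly equal, 77.7% and 77.1%, at unequal depth, and the median single cell had 295 CPM in UAT against 651 in CST. The lymphatic ratio ran from 0.540 to 0.621 over all 14 alternatives.

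ANGPT1, the agonist of TEK, was mainly a mural gene. Mural cells held 321 CPM in UAT (297 to 347), and 146 CPM in CST (97.9 to 210), with a UMI in 55.9% and 26.1% of cells. Stromal cells followed in UAT with 51 CPM (48.7 to 53.3) and stood at 32.5 in CST (28.4 to 36.9). Myoid cells had 26.6 and 6.45 CPM, and Leydig cells 18.8 CPM in UAT (61 UMIs), and 89.5 CPM in CST (23 UMIs in 16 cells, 34.8% of them in 1 cell). Mural over stromal was 6.30 in UAT (5.75 to 6.89) and 4.51 in CST (2.95 to 6.64). Blood endothelium had only 5.74 and 2.38 CPM, but its UAT capillary subset reached 34.4 CPM (16 UMIs in 55 cells) against 1.51 CPM in arterial cells, a ratio of 22.8 (8.87 to 65.5). One capillary cell held 9 of those 16 UMIs, and 7.27% of capillary cells had any.

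ANGPT1 was higher in UAT in each of the 3 classes compared that hold most of it. The ratio was 2.20 in mural cells (1.51 to 3.30), 4.12 in myoid cells (2.45 to 7.46) and 1.57 in stromal cells (1.37 to 1.81). The myoid ratio rests on 15 CST UMIs and ran from 2.29 in Leiden clusters to 11.7 after thinning. In Leiden clusters the UAT myoid level was 15.5 CPM. The 9 contractile markers summed to 9911 CPM in UAT and 20942 CPM in CST myoid cells, so the 2 gates differ. The 10 mural markers summed there to 158 and 130 CPM. The part of mural cells at the edge of the myoid gate was not tested. Mural cells with 2 or fewer of 9 contractile markers detected were 42.8% of UAT mural cells (38.2 to 47.4) and 83.0% of CST ones (73.4 to 90.1). Detection depends on depth, and mural cells had median UMIs of 3717.5 in UAT and 1935.5 in CST. Within UAT the median was 2799 in the cells with few contractile markers and 5878.5 in those with at least 5. The part of depth in these shares was not tested. Within the cells with 2 or fewer contractile markers ANGPT1 stood at 271 CPM in UAT (162 UMIs), and 114 CPM in CST (16 UMIs), a ratio of 2.38 (1.42 to 4.26). Stromal cells with both PI16 and MFAP5, markers of adventitial fibroblasts, made up 44.4% and 63.4%. Their ANGPT1 ratio was 1.54 (1.32 to 1.82), and that of stromal cells with neither was 2.56 (1.27 to 6.01). The mural subset and the stromal cells with neither marker thus gave a larger ratio than their pooled class, and the stromal cells with both gave a slightly smaller one.

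ANGPT2 was highest in lymphatic endothelium. It stood at 619 CPM in UAT (564 to 677), and 1605 CPM in CST (1401 to 1831), with a UMI in 67% and 65.7% of cells. Blood endothelium held 81.2 CPM (76.3 to 86.3) and 38.6 (29.8 to 49.3). Lymphatic over blood endothelium was 7.62 in UAT (6.81 to 8.51) and 41.5 in CST (31.4 to 55.6). Among T or NK cells 2.37% in UAT and 0 of 70 in CST had a UMI. Mural cells held 48.3 CPM (97 UMIs) and 20.2 CPM (4 UMIs), and stromal cells 14.0 and 12.8 CPM. ANGPT2 is among the 10 leading genes of the lymphatic gate, although no marker list contains it.

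The ANGPT2 ratio lay on opposite sides of 1 in blood and lymphatic endothelium, a difference that was not tested. In blood endothelium the UAT over CST ratio was 2.10 (1.63 to 2.74), with 26.3% of UAT and 10.3% of CST cells holding a UMI. After thinning, 7.16% and 3.23% did. The lymphatic markers in this gate summed to 178 CPM in UAT and 76.1 CPM in CST, all from PROX1 and LYVE1. MMRN1, RELN and CCL21 were at 0 because the gate excludes any cell with them, so these zeros are no measurement. TFF3 was at 0 without such a rule. The part of the lymphatic markers in the ANGPT2 and FLT4 differences of blood endothelium was not tested. The ratio was 2.26 in arterial cells (1.47 to 3.66) and 3.46 in venous cells (1.15 to 17.1), the latter from 3 CST UMIs. In lymphatic endothelium the ratio was 0.385 (0.328 to 0.454), but 1 CST cell held 106 of the 222 UMIs. Without the highest cell of each library the levels were 571 and 921 CPM, a ratio of 0.620. Without the 5 highest cells of each they were 479 and 566 CPM, and the median single cell had 361 CPM in UAT against 588 in CST. The plot of single lymphatic cells shows this long upper tail.

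**Figure D2:**
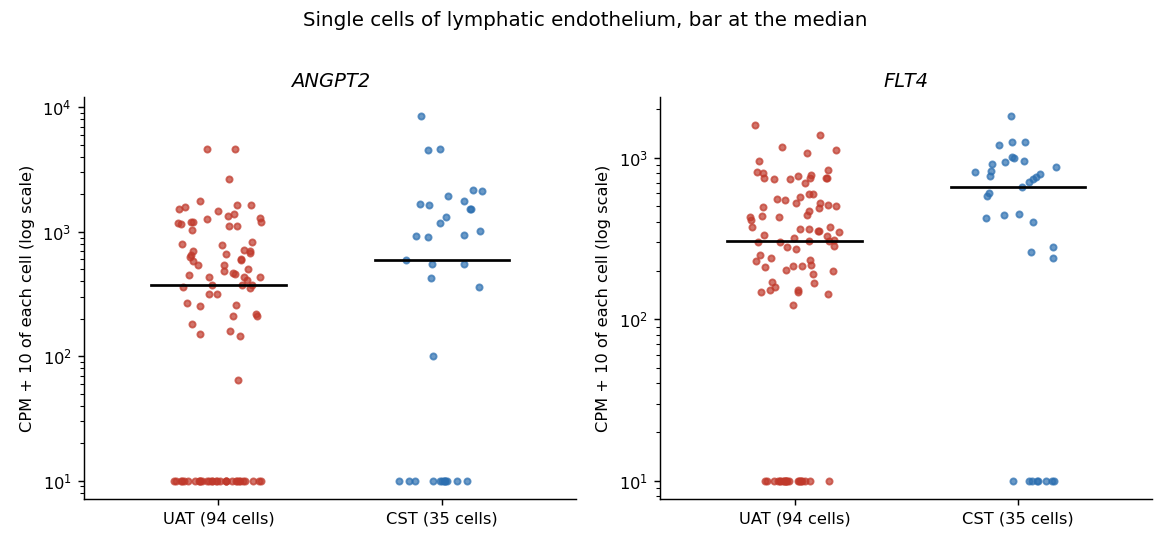
ANGPT2 (left) and FLT4 (right) in single cells of lymphatic endothelium of UAT (94 cells, red) and CST (35 cells, blue), as CPM + 10 of each cell on a log axis with the median as a black bar; cells without a UMI lie at 10. The 2 libraries overlap in both genes, and the medians are 361 and 588 CPM for ANGPT2 and 295 and 651 CPM for FLT4.

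TEK, the receptor of both angiopoietins, separated blood from lymphatic endothelium in the way FLT1 did, though less sharply. Blood endothelium held 193 CPM in UAT (186 to 201), and 172 CPM in CST (153 to 193). Lymphatic endothelium held 23.9 CPM (18 UMIs) and 43.4 CPM (6 UMIs). The lymphatic level was 0.124 times the blood level in UAT (0.0731 to 0.196) and 0.253 times in CST (0.0919 to 0.556). TEK differed little between the testes in blood endothelium, with a ratio of 1.12 (0.996 to 1.28), and 0.991 in Leiden clusters. Macrophages were the next class, at 4.87 and 6.43 CPM, from 26 and 3 UMIs.

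TIE1 was shared by both kinds of endothelium. Blood endothelium held 181 CPM in UAT (173 to 188), and 178 CPM in CST (159 to 200), a ratio of 1.01 (0.898 to 1.15). Lymphatic endothelium held 228 CPM (195 to 265) and 195 CPM (129 to 284), a ratio of 1.17 (0.776 to 1.83), and 1.86 after thinning to 1000 UMIs. Macrophages had 22.3 CPM in UAT (119 UMIs) and T or NK cells 12.6 CPM (14 UMIs), whereas stromal cells had 0.937 CPM. TIE1 UMIs were thus seen at a low level in immune cells, in UAT in 13.7% of macrophages and 4.14% of T or NK cells at median depths of 6105.5 and 3124 UMIs. CST macrophages had 12.9 CPM (6 UMIs) and CST T or NK cells 5.80 CPM (1 UMI). The macrophage ratio was 1.73 with an interval that held 1 (0.773 to 4.81). The part of free RNA in the T or NK counts was not tested.

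**Figure D3:**
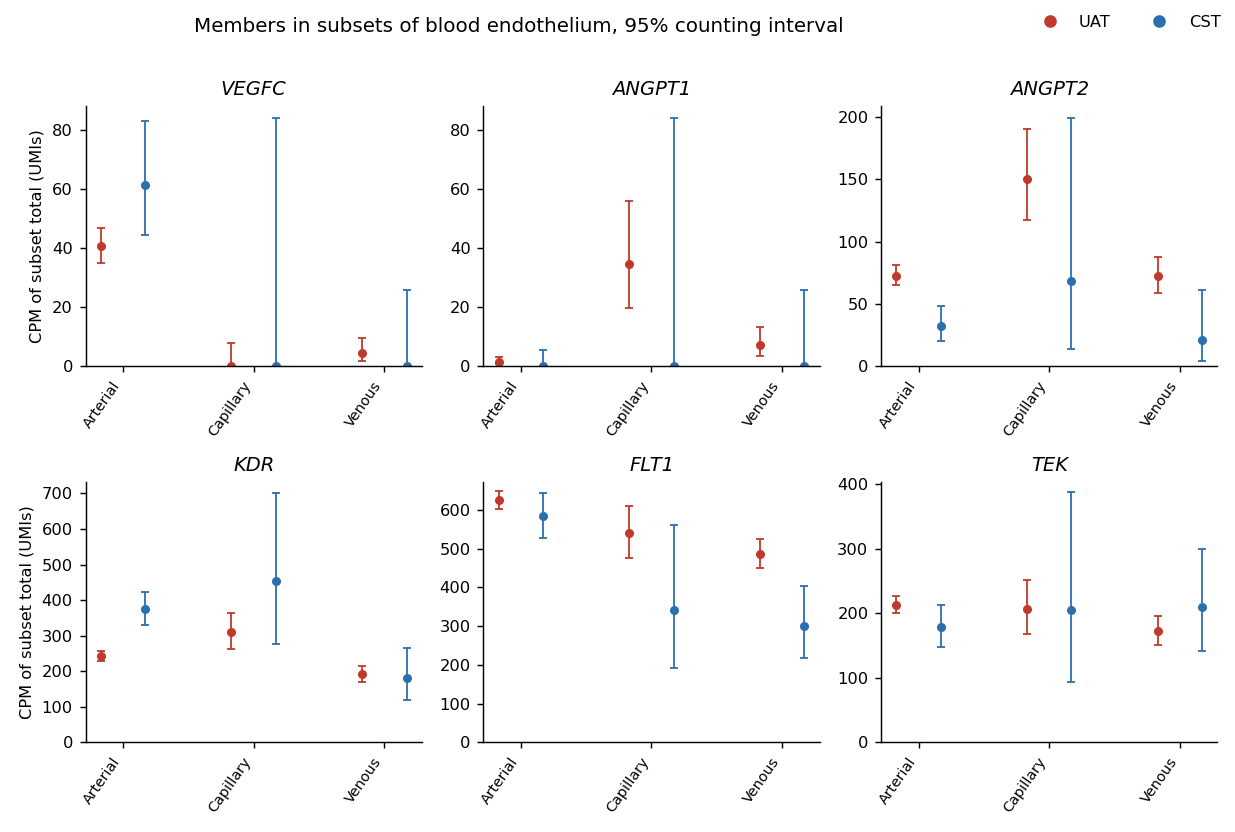
Levels (vertical axis, CPM of the UMIs of a subset, starting at 0) of 6 genes in arterial, capillary and venous blood endothelium of UAT (red; 586, 55 and 143 cells) and CST (blue; 153, 15 and 21 cells), with exact Poisson 95% counting intervals. VEGFC was highest in arterial cells of both libraries, and UAT capillary cells stood highest in ANGPT1 at 34.4 CPM (16 UMIs, 9 of them in 1 cell) and ANGPT2 at 151 CPM.

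Among the subsets of blood endothelium, in UAT, capillary cells exceeded arterial cells 2.07-fold in ANGPT2 (1.58 to 2.69) and 1.28-fold in KDR (1.06 to 1.52). For TEK the ratio was 0.971 (0.779 to 1.20) and for TIE1 0.915 (0.718 to 1.15). The CST subsets of 15 capillary and 21 venous cells had 3 ANGPT2 UMIs each and do not place these subsets in an order. Arterial cells were 41.1% of UAT and 40.4% of CST blood endothelium, venous cells 10.02% and 5.54%, and capillary cells 3.85% and 3.96%. The remaining blood endothelial cells joined no subset, so the subsets do not make up the whole class.

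Counted by size, 1 of 7 members measured in blood endothelium (20 CPM or more in either library) was at least 1.5-fold higher in UAT (ANGPT2), where 7.75% of all 8245 measured features were. One was at least 1.5-fold lower (VEGFC), where 18% of all features were. The median log2 ratio, with 10 CPM added to each level, was 0.15 for the members and -0.03 for all features. In lymphatic endothelium 0 of 6 members were higher, against 16.6% of features, and 3 were lower (FLT4, ANGPT2 and TEK), against 35.3%. The medians were -0.50 and -0.21. TEK rested on 6 CST UMIs, with an interval of its ratio that held 1 (0.209 to 1.69).

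In mural cells 2 of 4 members were higher (ANGPT1 and ANGPT2), against 15.8% of features, and 1 was lower (FLT1), against 34%. The ANGPT2 ratio was 2.39 with an interval that held 1 (0.905 to 8.96). In myoid cells 1 of 3 was higher (ANGPT1; 7.86% of features) and 0 lower (20.5%). In stromal cells 1 of 3 was higher (ANGPT1; 5.02% of features) and 0 lower (17%). The stromal ANGPT1 ratio fell just short of the fold with simulated doublets removed or with 10% free RNA taken out (1.47). With 2 markers enough for a gate, myoid ANGPT1 was under 20 CPM in both libraries and no longer counted, at a ratio of 3.14.

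**Figure D4:**
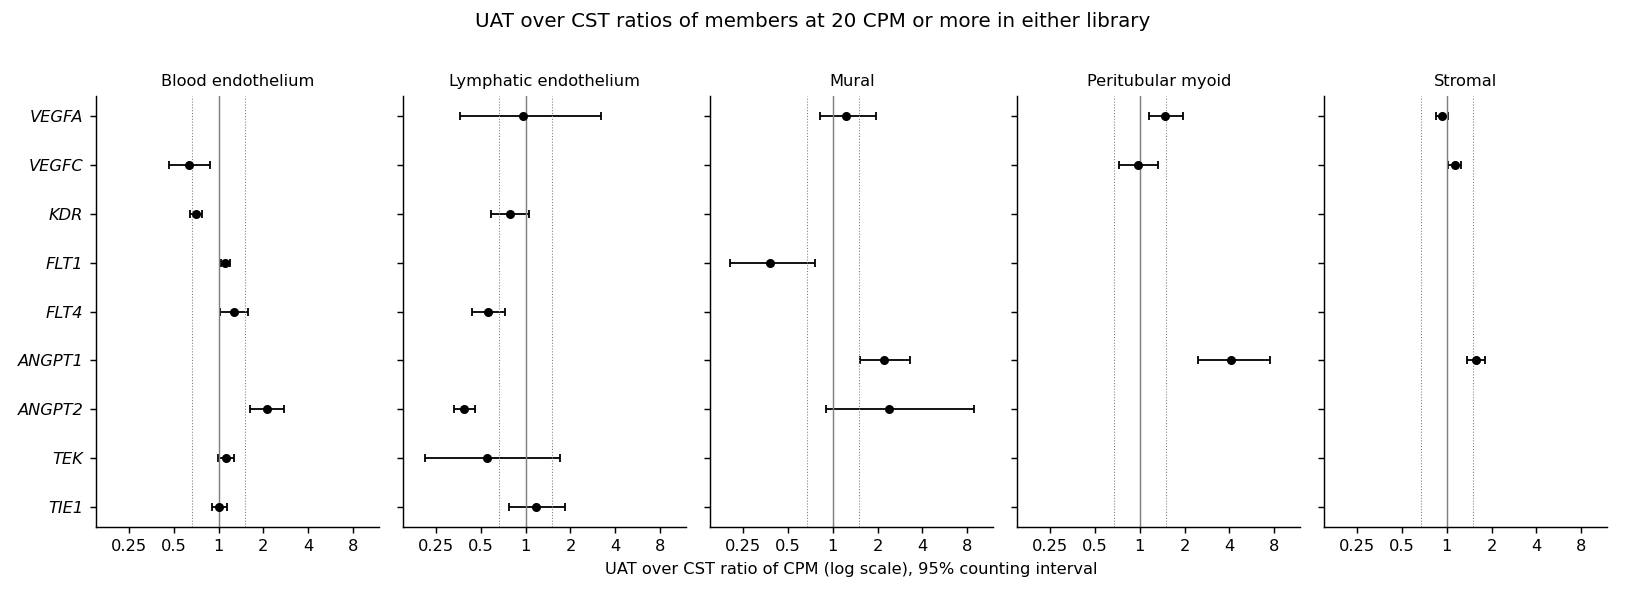
UAT over CST ratio of CPM (horizontal axis, log scale) with exact 95% counting intervals for each gene measured at 20 CPM or more in either library, in 5 classes. The solid line marks 1 and the dotted lines 1.5-fold in each direction; ANGPT1 lies to the right in mural, myoid and stromal cells (2.20, 4.12 and 1.57), and ANGPT2 lies on opposite sides in blood (2.10) and lymphatic endothelium (0.385).

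Other ligands, co-receptors and processing genes of the pathway moved in several directions. In blood endothelium 1 of 5 measured genes of that list was at least 1.5-fold higher and 0 lower, beside 7.75% and 18% of all features. PGF, a ligand of FLT1, stood at 32.3 CPM in UAT (410 UMIs), and 5.35 CPM in CST (9 UMIs), a ratio of 6.03 (3.14 to 13.3). The co-receptors NRP1 and NRP2 had ratios of 1.30 (1.14 to 1.49) and 1.34 (1.13 to 1.59). VEGFB, another FLT1 ligand, had a ratio of 0.712 (0.520 to 0.994). PTPRB, the phosphatase that restrains TEK, stood at 338 and 342 CPM, a ratio of 0.987 (0.905 to 1.08).

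The same list differed among the other classes. In lymphatic endothelium 1 of 4 measured genes was at least 1.5-fold higher and 2 lower, beside 16.6% and 35.3% of all features. NRP2, the co-receptor for VEGFC, stood there at 345 CPM in UAT against 672 in CST, a ratio of 0.513 (0.404 to 0.658). PTPRB there had a ratio of 0.570 (0.369 to 0.907) and PGF of 3.18 (1.03 to 15.9). In stromal cells 1 of 5 was higher and 1 lower, beside 5.02% and 17% of all features. SVEP1, a matrix protein that binds TIE1, had a stromal ratio of 2.84 (2.52 to 3.20), from 119 and 42.1 CPM. Stromal PGF was lower, with a ratio of 0.510 (0.444 to 0.588), the opposite side to its blood endothelial and lymphatic ratios. In stromal cells with both PI16 and MFAP5, SVEP1 was at least 1.5-fold higher and PGF at least 1.5-fold lower. In stromal cells with neither marker, SVEP1 and PGF lay within 1.5-fold. The pooled mural PGF ratio was 1.98 (1.06 to 4.2), but in mural cells with 2 or fewer contractile markers it was 0.646 (0.191 to 2.78), from 11 UAT and 4 CST UMIs. NRP1 was higher in mural (1.80, 1.24 to 2.72) and myoid cells (2.42, 2.07 to 2.85).

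Among 21 endothelial response genes, 18 were measured in blood endothelium, 4 were at least 1.5-fold higher and 1 lower, beside 7.75% and 18% of all features. The higher ones were FOXO1, EGR3, DUSP5 and TAL1, the last named here after its value was seen. FOXO1, a transcription factor held in check by TEK signalling and an activator of ANGPT2, stood at 164 CPM in UAT against 103 in CST (1.58, 1.36 to 1.86). EGR3 and DUSP5, early genes downstream of VEGF receptors, had ratios of 2.02 (1.63 to 2.53) and 1.92 (1.52 to 2.46). These were not particular to blood endothelium. Both genes were also at least 1.5-fold higher in mural and T or NK cells, EGR3 in lymphatic endothelium and macrophages, and DUSP5 in stromal cells. EGR3 lay within 1.5-fold in myoid and stromal cells, and DUSP5 in lymphatic endothelium, macrophages and spermatogonia. FOXO1 was also at least 1.5-fold higher in mural cells. It lay within 1.5-fold in the lymphatic, myoid, stromal, macrophage, T or NK and spermatogonia gates. In blood endothelium ESM1, a marker of VEGF-stimulated tip cells, was lower at 17.2 CPM against 44.6 (0.385, 0.295 to 0.507). Genes listed as VEGF responses thus lay on both sides of 1. The list's median log2 ratio was 0.09.

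In lymphatic endothelium 3 of 15 measured response genes were higher (KLF2, EGR3 and NR4A1) and 2 lower (DLL4 and CD34), beside 16.6% and 35.3% of all features, so the share of higher ones was near the background. KLF2, a flow-responsive factor, stood at 702 and 456 CPM (1.54, 1.19 to 2.03), and DLL4, a NOTCH ligand, at 63.7 and 130 CPM (0.490, 0.280 to 0.894). In mural cells 5 of 10 were higher, among them KLF2 (2.38, 1.61 to 3.68) and the immediate early gene NR4A1 (2.13, 1.58 to 2.94), and 3 lower, beside 15.8% and 34% of all features.

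The hypoxia response list contains regulators and targets of the factor that drives VEGFA. In blood endothelium 3 of its 17 measured genes were higher (EGLN3, ADM and P4HA1) and 3 lower (SLC2A1, PDK1 and ANKRD37), beside 7.75% and 18% of all features. The share of lower ones was thus near the background, and the list's median log2 ratio was 0.05. ADM, a vessel-dilating peptide, had a ratio of 1.52 (1.32 to 1.75), and the glucose transporter SLC2A1 of 0.514 (0.433 to 0.613). ADM was higher in stromal (2.17, 2.01 to 2.35), mural (5.68, 1.54 to 47.4) and lymphatic cells (1.89, 1.36 to 2.69), while PDK1, which limits pyruvate oxidation, was lower in stromal (0.513, 0.437 to 0.606) and mural cells (0.417, 0.198 to 0.98). In mural cells with 2 or fewer contractile markers the ADM ratio was 3.52 with an interval that held 1 (0.894 to 30.4), from 30 UAT and 2 CST UMIs. PDK1 there had a ratio of 0.268 (0.0851 to 0.870), from 8 and 7 UMIs. In mural cells 7 of 16 measured genes were higher and 2 lower, and in stromal cells 4 of 16 were higher and 1 lower. Over all features, 15.8% were higher and 34% lower in mural cells, and 5.02% and 17% in stromal cells. EPAS1, a subunit of the hypoxia factor that is abundant in endothelium, had a stromal ratio of 2.30 (1.87 to 2.87). EPAS1 and ADM were at least 1.5-fold higher in stromal cells with both PI16 and MFAP5, and within 1.5-fold in those with neither. PDK1 was at least 1.5-fold lower in both of these stromal subsets.

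Signals between endothelium and mural cells also lay on both sides of 1. In blood endothelium 1 of 7 measured genes was at least 1.5-fold higher (EDN1) and 2 lower (PDGFRB and JAG1), beside 7.75% and 18% of all features. EDN1, a vessel constrictor, had a ratio of 1.52 (1.35 to 1.72). PDGFRB is a mural gene, and the 10 mural markers summed to 252 CPM in the UAT and 562 CPM in the CST blood endothelial gate. Their part in the PDGFRB difference was not tested. In blood endothelium PDGFB, which recruits pericytes, stood at 156 and 233 CPM (0.669, 0.60 to 0.748), just short of the fold, and JAG1, a NOTCH ligand, at 295 and 458 (0.644, 0.596 to 0.697). In mural cells 0 of 6 were higher and 2 lower, beside 15.8% and 34% of all features, so the share of lower ones was near the background. The receptor PDGFRB stood there at 809 CPM in UAT against 1639 in CST (0.494, 0.438 to 0.558), the opposite direction to ANGPT1 in the same cells. In stromal cells PDGFRB was at 255 and 172 CPM (1.48, 1.40 to 1.58). It was at least 1.5-fold higher in stromal cells with both PI16 and MFAP5, and within 1.5-fold in those with neither.

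Across 22 class and library profiles of at least 20 cells, Pearson's r of log2(CPM + 10) gave the features most like each member. These profiles share libraries and depth, so r is a description. KDR was most like THSD1 (0.99), PCDH12 (0.99) and TM4SF18 (0.99), and among the members like TIE1 (0.95) and FLT4 (0.95). TEK was most like CYYR1 (0.98), SOX7 (0.98) and NR5A2 (0.97), and TIE1 like NOTCH1, USHBP1 and RAMP3 (0.96, 0.96 and 0.95). FLT4 was nearest to AVPR2 (0.99), ABLIM3 (0.98) and C10H20orf204 (0.97), and FLT1 to TOX3 (0.96), MAPK11 (0.95) and FMO2 (0.93). ANGPT2 was nearest to GJD3, HOXA9 and RASSF9 (0.96, 0.96 and 0.95), and ANGPT1 to KLK1, SMTNL2 and SCN7A (0.94, 0.93 and 0.92). VEGFC was nearest to CYP1B1, COL15A1 and RBP5 (0.92, 0.91 and 0.89), and VEGFA to BLVRB, TET2 and ARHGAP6 (0.87, 0.84 and 0.84).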

How the data were processed

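Raw UMI counts, whole numbers for each feature in each barcode, were used as deposited. Cell Ranger 5.0.0 is named per the file headers. Version 3.0.1 and the mouse build mm10 stand in the submitters' processing notes, while symbols in the tables are those of macaque genes, so no coordinates are printed. Of 11526 features with only a LOC name, 721 received a symbol from a RefSeq gene table. VEGFD appears under its older symbol FIGF.

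Barcodes with at least 500 genes were kept (12352 in UAT, 15001 in CST). A cell joined the class whose marker list it detected in the largest share, with at least 3 markers, no other list above 67% of that share and spermatid markers at no more than 2% of UMIs. Cells with at least 4 mural markers were mural whatever their contractile markers. The limits on a second list and on spermatid markers left out 1966 UAT and 1933 CST cells with close lineages, and no doublet caller was applied. Subsets of blood endothelium needed at least 2 markers and no other subset list above 67% of the leading share. Blood endothelial cells that failed this joined no subset. The gate thresholds were set after the files were seen. UMIs were summed per class and library, and a ratio was taken where both libraries had at least 20 cells. Background counts use features at 20 CPM or more in either library and a 1.5-fold difference. The named pathway genes are, of each list and class, up to 3 higher and 3 lower with the counting bound farthest from 1, and likeness was taken among 12550 features that are no gate markers. The members and lists were chosen with earlier results of these data known. The interval step was run on simulated Poisson counts, the model that the intervals assume. That run cannot show how the intervals hold where UMIs are clumped in few cells. Alternatives covered gate stringency, gene minimum, close cells, doublet removal, Leiden clusters, averaging, thinning, scaling, free RNA and the CPM minimum. Work used Python 3.11.15 with scanpy 1.11.5.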

Additional observations from a re-analysis of the deposited data

Results flagged for a closer look

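In all, 4 members lay on opposite sides of 1 in different classes under the same UAT over CST contrast, with counting intervals that did not hold 1. In each case the difference between the classes was not tested, since each position had 1 library. ANGPT2 had a ratio of 2.10 in blood endothelium and 0.385 in lymphatic endothelium, where 1 CST cell held 47.7% of its UMIs. FLT4 had a ratio of 1.27 in blood and 0.559 in lymphatic endothelium. VEGFC had a ratio of 1.13 in stromal cells and 0.632 in blood endothelium. FLT1 had a ratio of 1.11 in blood endothelium and 0.380 in mural cells, the latter from 13 CST UMIs.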

How the results depend on the processing

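Over 14 settings, 23 member ratios gave 322 values, of which 21 moved by more than their counting interval and 3 passed to the other side of 1. The reversals were VEGFC in blood endothelium with close lineages kept (1.02), FLT1 in blood endothelium in Leiden clusters (0.991) and FLT1 in mural cells thinned to 1000 UMIs (2.09). With close lineages kept, KDR in blood endothelium had a ratio of 0.842, FLT1 there 1.25, ANGPT2 in lymphatic endothelium 0.564 and VEGFA in myoid cells 2.14. In Leiden clusters VEGFC in blood endothelium was at 0.934, TEK, whose interval held 1, at 0.991 there, ANGPT2 in blood endothelium at 1.6, ANGPT2 in lymphatic endothelium at 0.458 and ANGPT1 in myoid cells at 2.29. As a mean of single cells KDR in blood endothelium was at 0.632, ANGPT2 in lymphatic endothelium at 0.493 and FLT1 in mural cells at 0.808. Thinned to 1000 UMIs, ANGPT2 in lymphatic endothelium was at 0.457, VEGFA in myoid cells at 1.99, ANGPT1 in myoid cells at 11.7, VEGFC in myoid cells at 1.62, TIE1 in lymphatic endothelium at 1.86, TIE1 in blood endothelium at 1.36 (1.23 with close lineages kept) and ANGPT1 in stromal cells at 1.88. Without the highest cell of each library, an alternative chosen after seeing the data, ANGPT2 in lymphatic endothelium was at 0.620. The count of members at least 1.5-fold lower in blood endothelium, 1 as reported, ran from 0 to 2 over the settings. The causes were not tested. The share of all features at least 1.5-fold higher changed in blood endothelium to 13.5% with close lineages kept, 14.6% thinned and 24.6% with no minimum, in lymphatic endothelium to 28.1% and 33.1%, in mural cells to 25.2% and 34.6% (thinned and no minimum). In myoid cells it became 13.8% with close lineages kept, 13.7% thinned, 12.3% with mitochondrial, ribosomal and spermatid genes left out of the total and 22% with no minimum, and in stromal cells 7.78% and 20% under the last 2. The share at least 1.5-fold lower changed in blood endothelium to 27.2% with close lineages kept and 32.2% with no minimum, in myoid cells to 33.4% with no minimum, and in stromal cells to 33.1% with no minimum and 11.3% with 10% free RNA taken out. The median ratio of all features that this scaling divides out had a log2 of -0.12 in lymphatic endothelium and of at most 0.06 in size in the other 4 classes compared, so lymphatic ratios become higher under it. No paired analysis was possible because each position had 1 library. Levels near 20 CPM in the CST lymphatic, mural, Leydig and Sertoli cells rest on few UMIs and have wide intervals.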
